A study of Mus musculus with 2 samples.

Results

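Fc receptors bind the constant part of antibodies, and 6 of the 32285 genes in the deposited matrices were taken as members by their symbols: Fcgr1, Fcgr2b, Fcgr3, Fcgr4, Fcer1g and Fcgrt. All 6 symbols were found. The data are 2 droplet single-cell RNA libraries, 1 labelled KO, of CD200R1-/- mice, and 1 labelled WT, of wild-type mice, both on the C57BL/6J background and 18 months old. Neither group received a treatment or a disease model per the labels, although the study's title names Parkinson's disease. Brains were perfused with phosphate-buffered saline and dissociated, and cells carrying CD11b, a myeloid surface integrin, were selected on magnetic particles and run on the 10x 3′ v3.1 chemistry. How many mice were pooled is not given, so each group is 1 sample: there is no test between genotypes, no p-value is given, and every interval is a 95% exact interval that covers counting error only. KO and WT stand for the libraries as labelled.

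CD200R1 is an inhibitory receptor of myeloid cells. The Fc gamma receptors bind IgG and set how strongly phagocytes answer to antibody-coated targets. In mice, Fcgr1 encodes the high-affinity activating receptor, Fcgr3 and Fcgr4 encode activating receptors of lower and intermediate affinity, and Fcgr2b encodes the inhibitory receptor, which works through the phosphatase SHIP-1, the product of Inpp5d. Fcer1g encodes the common gamma chain that the activating receptors need for surface expression and for signalling through Syk. Fcgrt encodes the heavy chain of the neonatal Fc receptor, which pairs with B2m, binds IgG and albumin inside cells and protects them from breakdown. In the brain, the Fc gamma receptors are known from microglia and border macrophages, and the neonatal receptor is known from blood vessels.

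Gene positions follow GENCODE vM21 on GRCm38. Fcgr2b, on the minus strand of chromosome 1 at 170958617 to 170976547, Fcgr4, on the plus strand at 171018920 to 171029761, and Fcgr3, on the minus strand at 171051174 to 171064935, lie within 106319 bases of each other. Fcer1g lies further along the same chromosome, on the minus strand at 171229572 to 171234365. Fcgr1 is on the minus strand of chromosome 3 at 96282909 to 96293969, and Fcgrt is on the minus strand of chromosome 7 at 45092990 to 45103851. Fcgr2b and Fcgr3 have closely similar sequence in the exons of their extracellular domains, and how the counting split reads between them is not given in the sources used here. Their counts are therefore uncertain to that extent. Over all cells used, the antisense gene Gm38204 had 19 UMIs in KO and 32 in WT, beside 11993 and 11055 for Fcgr2b in the same order, and Gm45669 had 149 UMIs in KO and 167 in WT, beside 15807 and 18397 for Fcgrt.

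The promoters of 3 receptor genes are shown because Fcgr1 and Fcgr4 are known to be interferon-inducible and differed between the libraries in some myeloid groups, while Fcgr3 differed least in microglia-like cells. The 250 bases before the annotated start are printed 5′ to 3′ on the strand of the gene, from RefSeq (GRCm38.p6). Capitals mark matches to the motifs searched. They are chr3:96293970-96294219 on the minus strand for Fcgr1, chr1:171018676-171018925 on the plus strand for Fcgr4 and chr1:171059404-171059653 on the minus strand for Fcgr3. The Fcgr3 window, and that searched for Fcgr2b, lie inside the GENCODE gene spans given above. The GENCODE spans of both genes thus reach further upstream than these RefSeq starts. Starts of single GENCODE transcripts were not compared, and only the RefSeq starts were searched.
Fcgr1: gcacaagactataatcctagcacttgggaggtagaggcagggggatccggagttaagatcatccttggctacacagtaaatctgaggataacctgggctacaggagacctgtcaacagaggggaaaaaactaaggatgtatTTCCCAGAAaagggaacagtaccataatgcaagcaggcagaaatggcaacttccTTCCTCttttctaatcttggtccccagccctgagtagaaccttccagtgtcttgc
Fcgr4: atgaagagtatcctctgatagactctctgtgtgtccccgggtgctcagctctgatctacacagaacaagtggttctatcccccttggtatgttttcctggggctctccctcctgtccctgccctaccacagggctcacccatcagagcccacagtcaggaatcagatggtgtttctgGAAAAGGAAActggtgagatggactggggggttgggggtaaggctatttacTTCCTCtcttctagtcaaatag
Fcgr3: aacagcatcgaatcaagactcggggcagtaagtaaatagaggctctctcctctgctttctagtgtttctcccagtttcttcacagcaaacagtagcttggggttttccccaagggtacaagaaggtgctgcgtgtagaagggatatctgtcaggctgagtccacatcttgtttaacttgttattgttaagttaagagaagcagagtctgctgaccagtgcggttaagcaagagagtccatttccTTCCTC

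The search covered both strands of windows from 250 bases before to 50 bases after each start for 3 motifs: TTCNNNGAA, the gamma-activated site of interferon signalling, GAAA followed after any 2 bases by GAAA, the core of the interferon-stimulated response element, and GAGGAA, a core bound by the myeloid factor PU.1. Fcgr1 held a gamma-activated site match 109 bases before its start and a PU.1 core on the reverse strand 55 bases before it. In the human counterpart, FCGR1A, a gamma-activated site and a PU.1 site in the promoter are known. Fcgr4 held an interferon-stimulated response element match at 73 bases and a PU.1 core on the reverse strand at 22 bases. Fcgr3 held only a reverse PU.1 core, 6 bases before the start in the window shown and 15 bases in a second annotated window. The windows of Fcgr2b, Fcer1g and Fcgrt held none of these letters, and no matches overlapped. Of 32851 promoter windows of this length, 8.30% held the first motif, 3.44% the second and 28.3% the third, so a match is a description of letters and not of binding.

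The KO library held 19159 barcodes and 131196245 UMIs, and the WT library 18228 barcodes and 127429919 UMIs, with a median of 3975 and 3596.5 UMIs per barcode in the same order. After filters and removal of called doublets, 16935 KO and 16357 WT cells were used. The libraries shared 103 barcodes, of which 81 were used in both. Cd200r1, the targeted gene, had 1388 UMIs in KO, or 12.0 CPM, the UMIs of a gene scaled by all UMIs of the same cells, and 1461 UMIs or 12.7 CPM in WT, a ratio of 0.945 (0.877 to 1.02). The exons deleted in the knockout are not given in the sources used here, and 3′ counts outside them check nothing, so Cd200r1 did not test the labels. A class of cells was named from marker genes, always with "-like", and was compared if it had at least 50 cells in each library. This gave 14 groups, among them 4193 KO and 3565 WT microglia-like cells, 435 and 324 CNS-associated macrophage-like cells, 138 and 123 monocyte-like cells, and 88 and 178 neutrophil-like cells. Cluster 21, with 572 KO and 324 WT cells, led by the MHC class II genes H2-Eb1, H2-Aa and Ciita, and cluster 15, with 117 KO and 257 WT cells, led by Npy and Frzb, kept no name. Cells of the other clusters left without a name, for too few markers or for markers or leading genes of a second class, made up 27.2% of the KO and 35.0% of the WT library.

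The gate was for CD11b, but the libraries also held endothelial-, mural-, astrocyte- and other non-myeloid-like cells, and microglial RNA was found in all of them. The summed level of 9 microglial markers (among them P2ry12, Tmem119, Sall1, Cx3cr1 and Gpr34) was 16128 CPM in KO and 15835 CPM in WT microglia-like cells, and still 1003 CPM in KO and 1019 CPM in WT endothelial-like cells. All 9 markers had UMIs in every group. Free microglial RNA, below also free RNA, stands for such RNA counted outside microglia-like cells. Whether it was loose in the suspension, came from doublets or was made by the cells themselves was not tested. A receptor was therefore read as present above free microglial RNA in a group only if its level, as a percentage of that in microglia-like cells, was above the highest of the 9 markers in both libraries. By this reading Fcgr1 stood above free microglial RNA in 4 groups, Fcgr3 in 5, Fcgr2b in 7, Fcgr4 in 7, Fcer1g in 10 and Fcgrt in all 14, counting microglia-like cells themselves. With the lower bound of a receptor's counting interval in place of its level, the numbers were 3 for Fcgr1, 4 for Fcgr3, 6 for Fcgr2b, 4 for Fcgr4, 9 for Fcer1g and 13 for Fcgrt. Fcgr1 and Fcgr3 in monocyte-like cells and Fcgr4 in CNS-associated macrophage-, B cell- and endothelial-like cells were among those no longer above it. Both readings were set after the levels had been seen, and they cover microglial RNA only. Endothelial-like cells held 38.6% of the KO and 43.3% of the WT Fcgrt UMIs. Monocyte-like cells held 11.8% of the KO and 21.8% of the WT Fcgr4 UMIs. The part of free RNA from such other cells in the levels was not tested.

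**Figure D1:**
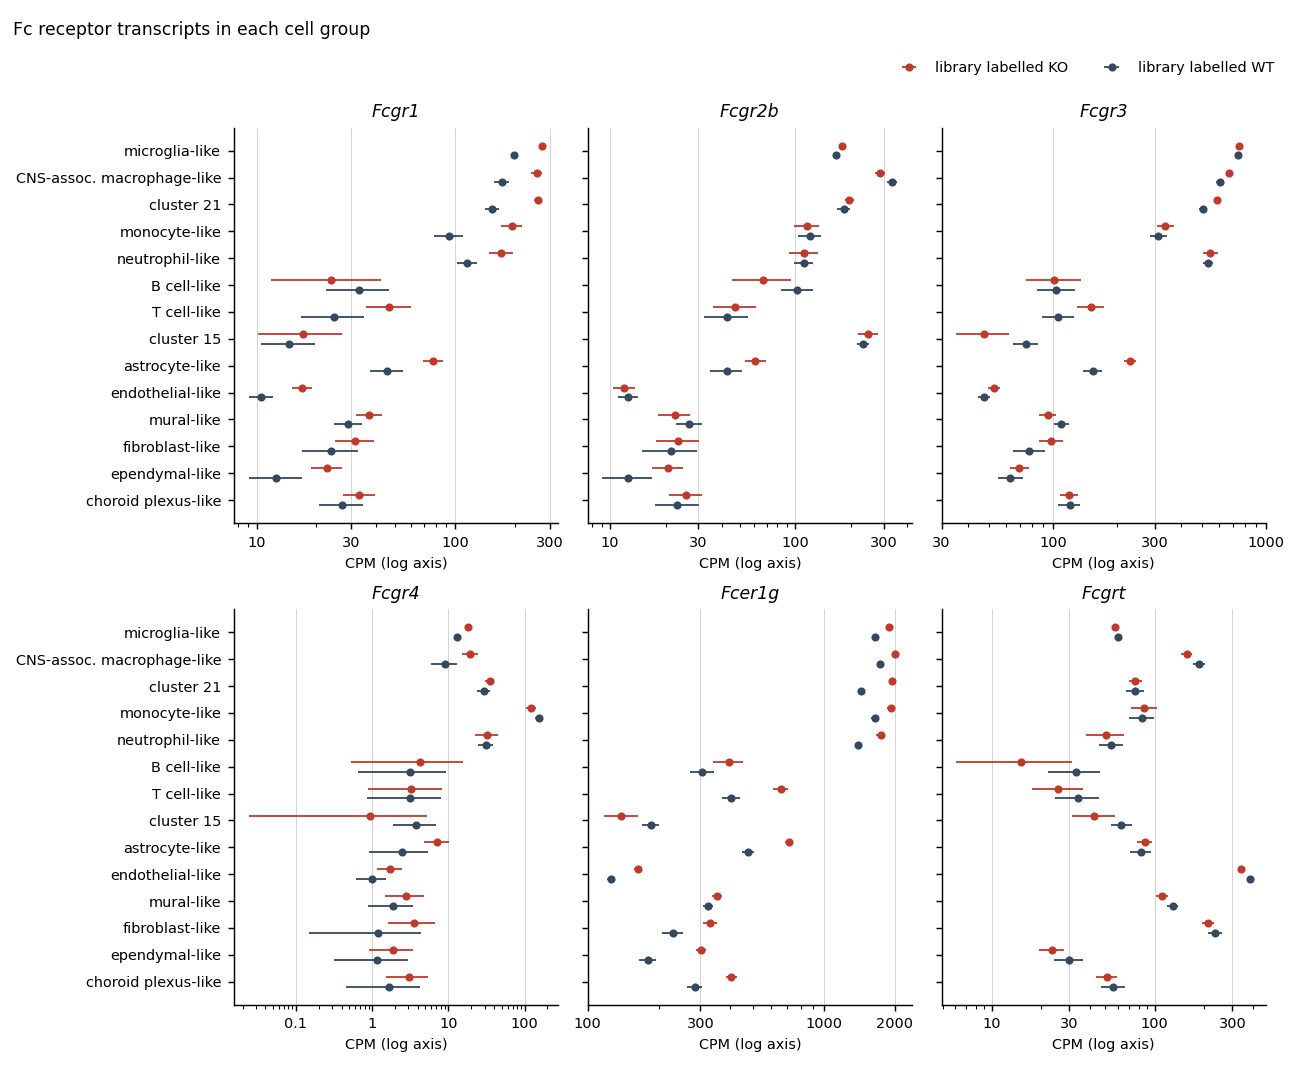
Levels of the 6 Fc receptor genes in 14 cell groups, as CPM on a log axis, with exact 95% Poisson intervals of the UMI sums (counting error only). The KO library is drawn above the WT library in each group; Fcgr1, Fcgr3 and Fcer1g are high in the 5 myeloid groups at the top, Fcgr4 peaks in monocyte-like cells and Fcgrt in endothelial-like cells.

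Fcgr1 was higher in KO than in WT in all 5 myeloid groups, and in microglia-like cells it was the 1 receptor of 6 past the threshold. Its level in microglia-like cells was 274 CPM in KO (11654 UMIs) and 199 CPM in WT (7930 UMIs), a ratio of 1.38 (1.34 to 1.42). A gene was called when the log2 ratio of CPM + 10 was at least 0.32 above or below 0. Of 14167 genes tested in microglia-like cells, 1.26% were called higher and 1.38% lower in KO, and the median log2 ratio was 0.15 for the 6 receptors beside 0.00 for all genes. The share of microglia-like cells with an Fcgr1 UMI was 80.7% in KO and 75.3% in WT. With each cell thinned to 1000 UMIs, that share was 24.0% in KO and 18.4% in WT, against 2.36% in KO and 1.08% in WT of endothelial-like cells, which should lack the gene. The Fc receptors were chosen with this Fcgr1 difference known, so it is a description and no independent result.

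The other macrophage groups had the same direction for Fcgr1. CNS-associated macrophage-like cells had 258 CPM in KO and 172 CPM in WT, a ratio of 1.503 (1.35 to 1.67). In the same cells the summed microglial markers were at 9452 CPM in KO and 7694 CPM in WT, and the 9 markers of CNS-associated macrophages at 4855 CPM in KO and 6015 CPM in WT, and the part of this in the receptor levels was not tested. Cluster 21 had 263 CPM in KO and 154 CPM in WT, a ratio of 1.71 (1.55 to 1.89), beside microglial markers at 10808 CPM in KO and 7996 CPM in WT. In monocyte-like cells Fcgr1 was at 193 CPM in KO (273 UMIs) and 92.8 CPM in WT (141 UMIs), a ratio of 2.08 (1.69 to 2.57), the highest of the myeloid groups. In neutrophil-like cells it was at 171 CPM in KO and 116 CPM in WT, but this was 62.4% and 58.1% of the microglia-like level, within the marker ranges of 45.8% to 64.2% in KO and 55.7% to 61.2% in WT. Fcgr1 in neutrophil-like cells was thus not told from free microglial RNA. By mean level over the libraries the order was microglia-, CNS-associated macrophage-like cells, cluster 21, neutrophil- and monocyte-like cells. Within each library, the counting intervals of cluster 21 and neutrophil-like cells did not overlap. Those of microglia- and CNS-associated macrophage-like cells overlapped in KO only. The other neighbouring pairs overlapped in both libraries.

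Fcgr3, the activating receptor with the highest level in microglia-like cells, was nearly equal in the 2 libraries. It was at 749 CPM in KO and 743 CPM in WT microglia-like cells, a ratio of 1.01 (0.992 to 1.02). This was the smallest difference of the 6 receptors in that group, in the same cells in which Fcgr1 stood 1.38-fold higher. The level was 675 CPM in KO and 608 CPM in WT CNS-associated macrophage-like cells, 590 and 508 CPM in KO and WT cluster 21, and 548 and 534 CPM in KO and WT neutrophil-like cells. Monocyte-like cells were lowest of the myeloid groups, at 337 CPM in KO and 313 CPM in WT. None of these 5 groups passed the threshold. Within each library, the counting intervals of microglia-, CNS-associated macrophage-like cells and cluster 21 did not overlap each other. Those of cluster 21 and neutrophil-like cells overlapped, and monocyte-like cells stood apart from both neighbours in the order. Microglia-like cells held 70.6% of the KO and 71.6% of the WT Fcgr3 UMIs, while they made up 24.8% of the KO and 21.8% of the WT cells.

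Fcgr4 had a different place: its level was highest in monocyte-like cells, where it was lower in KO, and in macrophages it was low and higher in KO. Monocyte-like cells had 122 CPM in KO (172 UMIs) and 156 CPM in WT (237 UMIs), a ratio of 0.780 (0.637 to 0.953). The log2 ratio of -0.33 was just past the threshold as lower, and it stayed past it in 8 of 12 alternatives (-1.20 to -0.20). In CNS-associated macrophage-like cells Fcgr4 was at 19.4 CPM in KO (78 UMIs) and 8.995 CPM in WT (27 UMIs), a ratio of 2.15 (1.38 to 3.47), and was called higher. With classes named cell by cell in place of clusters, its log2 ratio in CNS-associated macrophage-like cells was -0.020, and 0.40 when Ttr and erythroid genes were also left out of that naming, an alternative chosen after seeing the data. The class held 90 KO and 114 WT cells in the first naming and 201 KO and 171 WT cells in the second. Microglia-like cells had 18.3 CPM in KO and 12.9 CPM in WT, a ratio of 1.42 (1.27 to 1.60), but the log2 ratio of CPM + 10 was 0.31 and stayed within the threshold. Cluster 21, at 34.8 CPM in KO and 29.4 CPM in WT, and neutrophil-like cells, at 32.2 CPM in KO and 31.0 CPM in WT, lay between and were not called. The counting intervals of monocyte-like cells did not overlap those of the next group, and cluster 21 overlapped with neutrophil-like cells and microglia-like with CNS-associated macrophage-like cells. Monocyte-like cells were 0.815% of the KO and 0.752% of the WT cells, and held 11.8% of the KO and 21.8% of the WT Fcgr4 UMIs.

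Fcer1g, the signalling chain, was the most abundant of the 6 in every myeloid group. CNS-associated macrophage-like cells had 2003 CPM in KO and 1731 CPM in WT, monocyte-like cells 1929 CPM in KO and 1641 CPM in WT, and microglia-like cells 1893 CPM in KO and 1644 CPM in WT. Neutrophil-like cells were at 1744 CPM in KO and 1396 CPM in WT. The ratio was 1.16 in CNS-associated macrophage-, 1.18 in monocyte- and 1.15 in microglia-like cells, and none of these 4 groups was called, with neutrophil-like cells just under the threshold. Cluster 21 had 1936 CPM in KO and 1442 CPM in WT, a ratio of 1.34 (1.30 to 1.39), and was called higher. Within each library, the counting intervals of CNS-associated macrophage- and monocyte-like cells overlapped, as did those of monocyte- and microglia-like cells. Cluster 21 overlapped with microglia-like cells in KO only and with neutrophil-like cells in WT only. Neutrophil-like cells, the lowest of the 5 myeloid groups, stood apart from the next group, astrocyte-like cells at 714 CPM in KO and 476 CPM in WT. Counts at 3′ ends are per molecule and not scaled by length, so levels of different genes are compared as molecules counted.

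Fcgr2b, the inhibitory receptor, had its highest mean level in CNS-associated macrophage-like cells. Its counting interval there overlapped that of cluster 15, the next group, in KO and not in WT. Fcgr2b was also the receptor with the lowest KO over WT ratio in CNS-associated macrophage-like cells apart from Fcgrt. It was at 286 CPM in KO and 334 CPM in WT CNS-associated macrophage-like cells, a ratio of 0.857 (0.787 to 0.933), within the threshold. Microglia-like cells had 178 CPM in KO and 166 CPM in WT, a ratio of 1.08 (1.04 to 1.11). Cluster 21, at 195 CPM in KO and 182 CPM in WT, monocyte-like cells, at 116 CPM in KO and 120 CPM in WT, and neutrophil-like cells, at 111 CPM in both, were also within the threshold. The unnamed cluster 15 had an Fcgr2b level of 247 CPM in KO (261 UMIs) and 233 CPM in WT (674 UMIs), which was 139% and 141% of the microglia-like level, while its microglial markers were at 2.61% to 7.44% in KO and 6.22% to 11.6% in WT. Its Fcgr3 was at 47.4 CPM in KO and 74.7 CPM in WT, within those ranges of free RNA. Summed markers of astrocytes, at 3177 CPM in KO and 2711 CPM in WT, and of oligodendrocytes, at 4823 CPM in KO and 4218 CPM in WT, were both present in cluster 15. It carried astrocyte markers among those that define it, but its leading genes Npy and Frzb set it apart, and it was kept out of the astrocyte-like class after its values were seen.

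The number of Fcgr3 UMIs per Fcgr2b UMI sets an activating against the inhibitory receptor within each cell group. CNS-associated macrophage-like cells had 2.36 (2.20 to 2.53) in KO and 1.82 (1.68 to 1.97) in WT. Microglia-like cells had 4.204 (4.10 to 4.31) in KO and 4.49 (4.37 to 4.61) in WT. The intervals of the libraries did not overlap in either group, and the KO value was the higher one in CNS-associated macrophage-like cells and the lower one in microglia-like cells. In CNS-associated macrophage-like cells the KO value lay nearer to that of microglia-like cells than the WT value did. The microglial markers there, given above, were also higher in KO and the macrophage markers lower. The part of microglial RNA in the KO value was not tested. Monocyte-like cells had 2.91 in KO and 2.62 in WT, and cluster 21 had 3.02 in KO and 2.79 in WT, with intervals that overlapped. B cell-like cells, whose Fc gamma receptor is known to be Fcgr2b, had 1.52 (0.943 to 2.47) in KO and 1.01 (0.755 to 1.35) in WT, with Fcgr3 there within the range of free microglial RNA, and cluster 15 had 0.192 in KO and 0.320 in WT.

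Fcgrt lay outside the myeloid pattern, with its highest level in endothelial-like cells. These had 339 CPM in KO and 383 CPM in WT, a ratio of 0.887 (0.857 to 0.917), and held 38.6% of the KO and 43.3% of the WT Fcgrt UMIs. Their level was 597% of the microglia-like level in KO and 641% in WT, beside 6.22% in KO and 6.44% in WT for the summed microglial markers. Fibroblast-like cells followed at 214 CPM in KO and 235 CPM in WT, then CNS-associated macrophage-like cells at 158 CPM in KO and 188 CPM in WT, and mural-like cells at 111 CPM in KO and 129 CPM in WT. Microglia-like cells had 56.9 CPM in KO and 59.7 CPM in WT. Within each library, the counting intervals of endothelial-like cells did not overlap those of fibroblast-like cells. Those of fibroblast-like and CNS-associated macrophage-like cells did not overlap either. Fcgrt was lower in KO in all of these groups, and none of them passed the threshold. B2m, the partner chain, was at 2294 CPM in KO and 1855 CPM in WT microglia-like cells, a log2 ratio of 0.31, within the threshold.

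**Figure D2:**
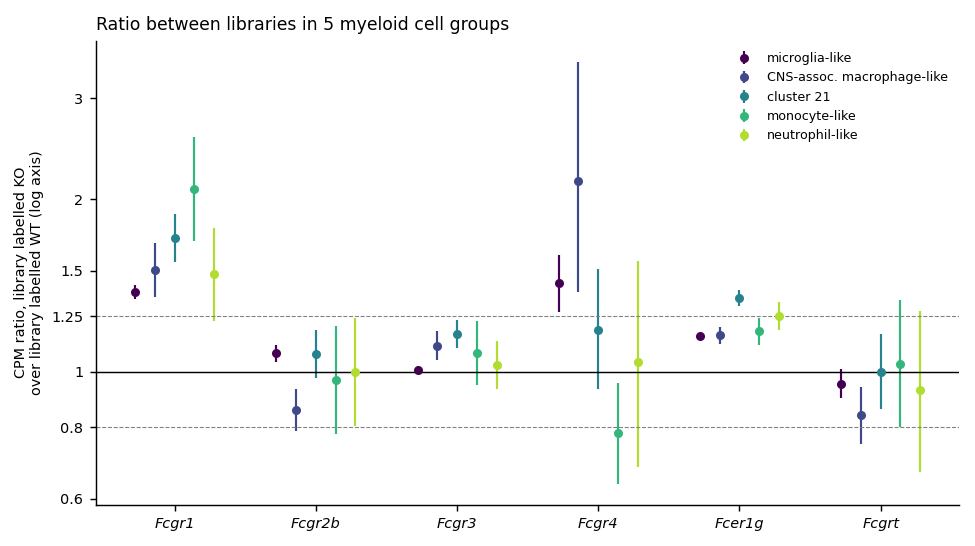
Ratio of CPM in the KO over the WT library for each Fc receptor gene in 5 myeloid groups, on a log axis, with exact conditional 95% intervals (counting error only); dashed lines mark the fold threshold either way. Fcgr1 is above the upper line in all 5 groups, Fcgr3 and Fcgrt are within the lines in all 5, and Fcgr4 is on opposite sides in CNS-associated macrophage-like and monocyte-like cells.

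Counts of called receptors were read against the share of all genes called. In CNS-associated macrophage-like cells 2 of 6 were called higher and 0 lower, where 5.96% of 9701 genes were higher and 8.5% lower, with a median log2 ratio of 0.18 for the receptors and 0.00 for all genes. In cluster 21, 2 were higher and 0 lower (5.61% and 6.73% of genes), with medians of 0.20 and 0.03. In monocyte-like cells 1 was higher and 1 lower (11.7% and 14.5%), with medians of 0.07 and -0.03. In neutrophil-like cells 1 was higher and 0 lower (11.9% and 29.3%), with medians of 0.04 and -0.11. Fcgr1 alone is the receptor called in every one of these groups, and the wide background in monocyte- and neutrophil-like cells means that a call there is common among genes. The 5 myeloid groups of 1 library share its free RNA and its processing, so agreement between them does not add replicates.

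Outside the myeloid groups the receptor calls and the microglial markers had the same direction in some groups and opposite directions in others. Counting receptors with at least 50 UMIs, as for the share of genes, 4 of 5 were called higher in astrocyte-like cells (12.9% of genes higher, 9.86% lower) while the summed microglial markers were at 4722 CPM in KO and 3154 CPM in WT. In T cell-like cells 3 of 5 were called higher (21.1% higher, 8.15% lower) with the markers at 3536 CPM in KO and 1975 CPM in WT. In cluster 15, 3 of 5 were called lower (8.72% higher, 14.5% lower) with the markers at 781 CPM in KO and 1382 CPM in WT. In these 3 groups the receptor calls had the direction of the microglial markers, and the part of free RNA in them was not tested. In ependymal-like cells 3 of 5 were called higher (4.1% higher, 5.35% lower), with the markers at 1412 CPM in KO and 1250 CPM in WT. In endothelial-like cells Fcgr1 and Fcer1g were called higher (1.94% higher, 1.62% lower) while the markers were lower in KO, as given above. In choroid plexus epithelial-like cells Fcer1g was called higher (3.3% and 13.1%) while the markers were at 2219 CPM in KO and 2314 CPM in WT. Its level there was above the marker range in KO only. In fibroblast-like cells 1 was called higher (8.78% and 10.4%), with the markers at 1668 CPM in KO and 1548 CPM in WT. In these 4 groups 0 were called lower, and in mural-like cells 0 were called either way (3.99% and 4.03%). In B cell-like cells 3 receptors had at least 50 UMIs, of which 1 was higher and 1 lower (15.2% and 27.7%). The lower one, Fcgr2b, was at 66.9 CPM in KO (31 UMIs) and 103 CPM in WT (97 UMIs), a ratio of 0.651 (0.420 to 0.985).

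**Figure D3:**
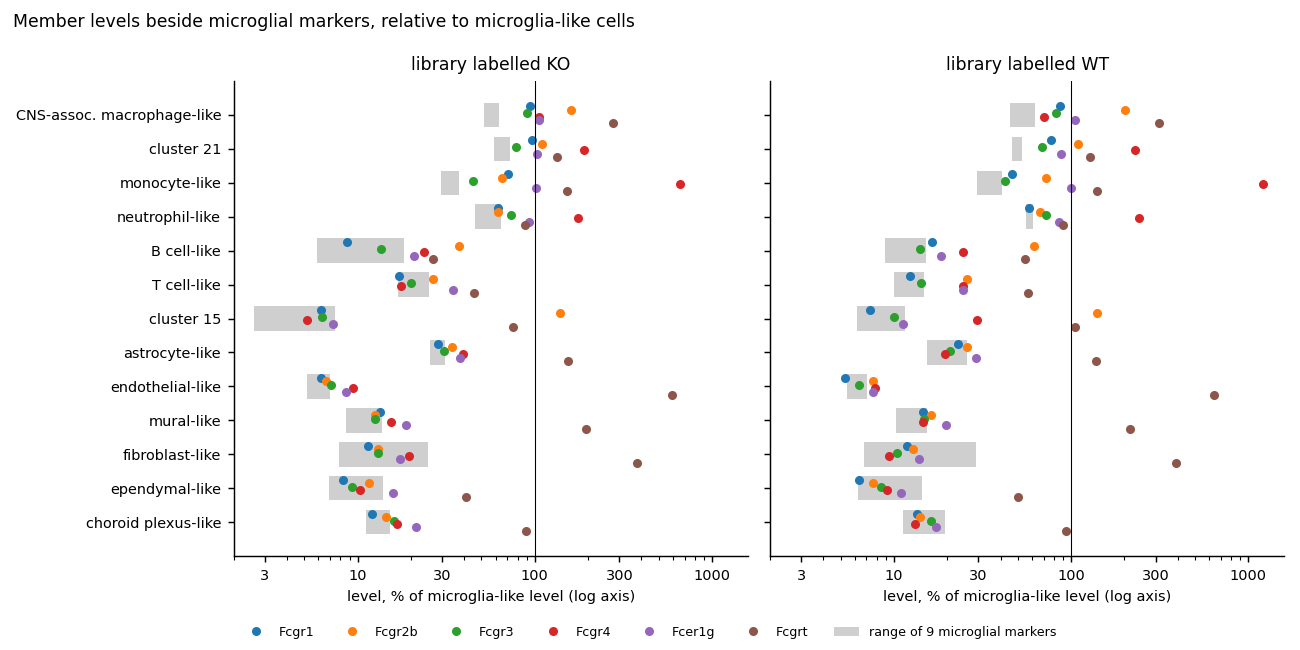
Level of each Fc receptor gene in 13 cell groups as a percentage of its level in microglia-like cells of the same library, on a log axis, for the KO library (left) and the WT library (right). Grey bars span the lowest to the highest of 9 microglial markers; points right of a bar stand above free microglial RNA, as Fcgrt does in all groups, Fcgr4 in monocyte-like cells at 664% in KO and 1213% in WT, and Fcgr2b in cluster 15.

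Natural killer cells are known to carry Fcer1g, and a small sub-cluster of the T cell-like group, with 23 KO and 20 WT cells, held 6 of the natural killer markers and was named natural killer cell-like. Its Fcer1g level was 1718 CPM in KO (209 UMIs) and 2058 CPM in WT (186 UMIs), close to that of the myeloid groups. The largest other T cell-like sub-cluster, with 72 KO and 86 WT cells, had 176 CPM in KO and 202 CPM in WT. Fcgr3, which these cells carry in mice, had 9 UMIs in KO and 5 in WT there, or 74.0 CPM in KO and 55.3 CPM in WT. Summed microglial markers in the natural killer cell-like sub-cluster were at 1290 CPM in KO and 1925 CPM in WT, so the Fcgr3 count was not told from free RNA.

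Within microglia-, CNS-associated macrophage-like cells and cluster 21, 12 sub-clusters had at least 50 cells in each library, and Fcgr1 was called higher in 9 of them and lower in 0. Of all genes, 4.5%, 7.16%, 2.43%, 16.6% and 3.06% were called higher in the microglia-like sub-clusters 0, 1, 3, 4 and 5, and 1.73%, 3.83%, 2.45%, 11.7% and 5.64% lower in the same order. In the CNS-associated macrophage-like sub-clusters 0, 1, 3 and 4 the shares were 14.6%, 13.2%, 9.35% and 20.9% higher, and 20.3%, 16.8%, 9.64% and 14.4% lower. In sub-clusters 1, 2 and 3 of cluster 21 they were 13.5%, 15.9% and 13.3% higher, and 13.6%, 15.2% and 8.12% lower, so outside microglia-like cells a call in a sub-cluster is common among genes. In the microglia-like sub-cluster 5, which is high in Ccl3 and Ccl4, it was at 275 CPM in KO and 178 CPM in WT, a ratio of 1.54 (1.45 to 1.64). In the unnamed microglia-like sub-clusters 0 and 3 it was at 276 and 284 CPM in KO and at 217 and 211 CPM in WT. Sub-cluster 1, led by the heat-shock genes Hspa1b and Hspa1a, had 233 CPM in KO and 202 CPM in WT and was within the threshold. The exception in direction was the interferon-responsive sub-cluster 4, with 590 KO and 50 WT cells, where Fcgr1 was at 274 CPM in KO and 339 CPM in WT, a ratio of 0.807 (0.705 to 0.928). There the summed level of 20 interferon-response genes was also lower in KO, at 1941 CPM in KO and 3442 CPM in WT. In the other 4 microglia-like sub-clusters that sum was higher in KO, between 1224 and 2019 CPM in KO and between 431 and 740 CPM in WT. The part of interferon-response genes in the Fcgr1 levels was not tested. With KO sub-clusters weighted by the WT make-up, the log2 ratio of Fcgr1 in microglia-like cells was 0.38, beside 0.44 without weighting.

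Sub-clusters of CNS-associated macrophage-like cells differed in Fcgr1 and Fcgr2b. Sub-cluster 1, high in Lyve1-linked genes and led by Mgl2 and Clec10a, had Fcgr1 at 298 CPM in KO and 160 CPM in WT, a ratio of 1.86 (1.47 to 2.37). The same cells had Fcgr2b at 371 CPM in KO and 472 CPM in WT, a ratio of 0.785 (0.663 to 0.929), called lower. Sub-cluster 4, also high in Lyve1-linked genes but led by Ccl7 and Ccl2, had Fcgr1 at 265 CPM in KO and 182 CPM in WT, and Fcgr2b at 439 CPM in KO and 433 CPM in WT. Fcgr2b was thus called lower in 1 of these 2 sub-clusters, and Lyve1 itself was among the markers passed by sub-cluster 4 only. It was also called lower in sub-cluster 0, at 213 CPM in KO (25 UMIs) and 298 CPM in WT (36 UMIs). The ratio there was 0.714 (0.411 to 1.22). In sub-cluster 3 Fcgr2b was at 239 CPM in KO and 264 CPM in WT, a ratio of 0.904 (0.792 to 1.03), within the threshold. The small sub-cluster 0 was the other exception for Fcgr1, with 188 CPM in KO (22 UMIs) and 216 CPM in WT (26 UMIs), a ratio of 0.870 (0.470 to 1.60). Over the 12 sub-clusters, Fcgr3 was called in 0, Fcgr2b higher in 0 and lower in 2, Fcer1g higher in 2 and lower in 0, and Fcgrt higher in 1 and lower in 0. Fcgr4 had at least 50 UMIs in 8 of the 12 and was called higher in 4 and lower in 1 of these.

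**Figure D4:**
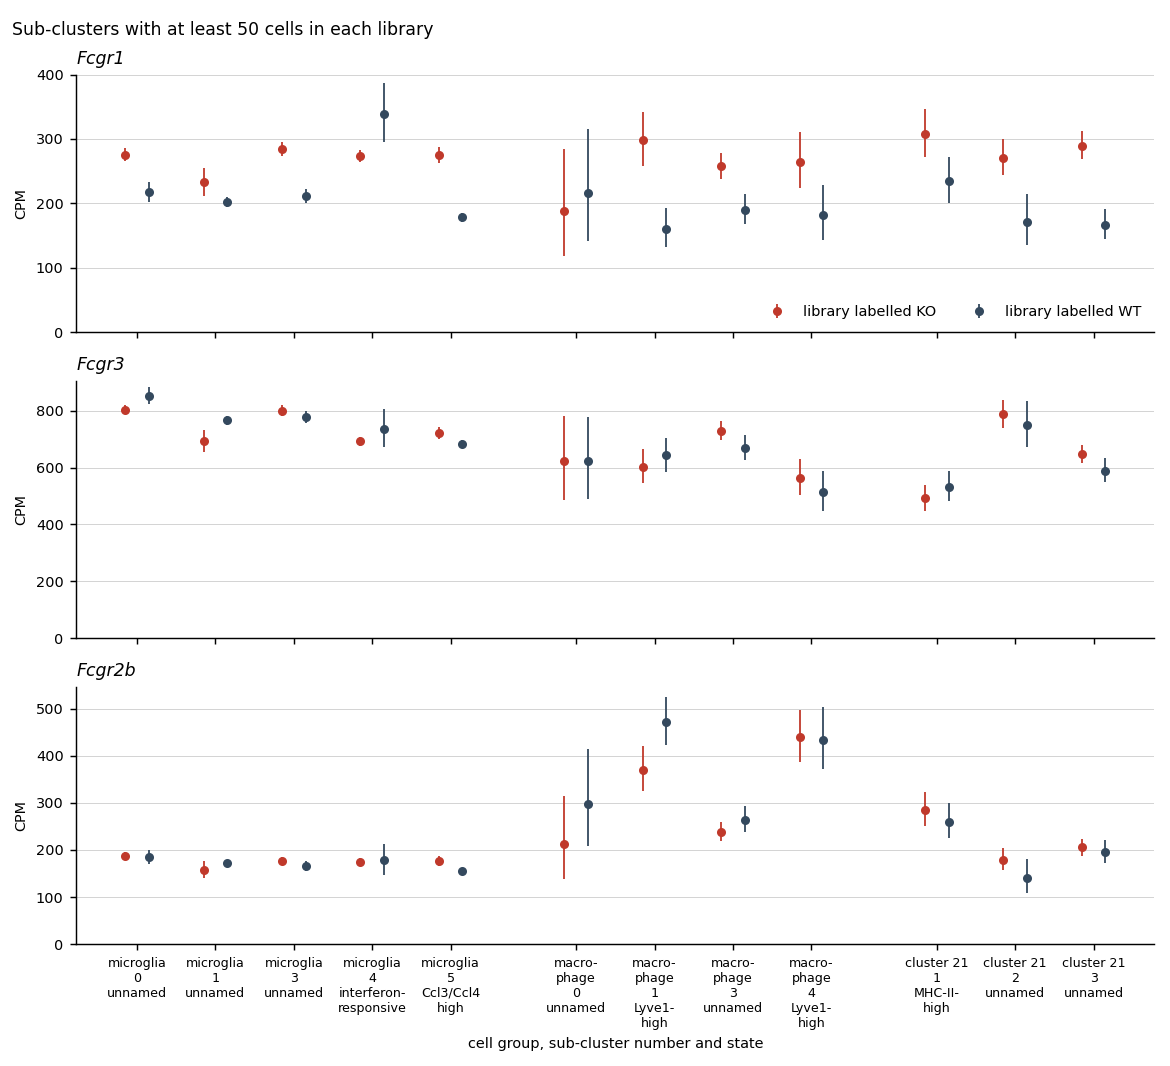
CPM of Fcgr1, Fcgr3 and Fcgr2b in the 12 sub-clusters of microglia-like cells, CNS-associated macrophage-like cells and cluster 21 with at least 50 cells in each library, with exact 95% Poisson intervals (counting error only), the KO library left of the WT library. Fcgr1 is higher in KO in 10 of 12 sub-clusters, and the interferon-responsive microglia-like sub-cluster, at 274 CPM in KO and 339 CPM in WT, goes the other way.

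Cluster 21 held several kinds of cells by their leading genes. Its sub-cluster 1, with MHC class II genes high and led by Ms4a4a and Cd163, had Fcgr1 at 308 CPM in KO and 234 CPM in WT and Fcgr4 at 73.2 CPM in KO and 68.7 CPM in WT. Sub-cluster 3, led by Spp1, had Fcgr1 at 290 CPM in KO and 167 CPM in WT, a ratio of 1.74 (1.49 to 2.04). Sub-cluster 0, with 37 KO and 25 WT cells and with Xcr1 and Clec9a among its leading genes, which are known from cross-presenting dendritic cells, had low receptor levels. There Fcgr3 was at 75.4 CPM in KO (34 UMIs) and 27.9 CPM in WT (10 UMIs), Fcgr1 at 46.6 CPM in KO and 8.4 CPM in WT, and Fcer1g at 437 CPM in KO and 287 CPM in WT. Summed microglial markers in sub-cluster 0 were at 1730 CPM in KO and 866 CPM in WT, the same direction as these levels. Fcgr2b was at 93.1 CPM in KO (42 UMIs) and 106 CPM in WT (38 UMIs), so in these cells Fcgr2b had more UMIs than Fcgr3 in both libraries.

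The monocyte-like group was small and its make-up differed between the libraries. Sub-cluster 0, with Cd36, Cd300e and Adgre4 among its leading genes, had 18 KO and 60 WT cells and Fcgr4 at 359 CPM in KO (18 UMIs) and 414 CPM in WT (141 UMIs). Sub-cluster 1, with Ear2 and Treml4 among its leading genes, had 43 KO and 4 WT cells and Fcgr4 at 320 CPM in KO (71 UMIs); its 4 WT cells had 0 Fcgr4 UMIs, which allows up to 538 CPM (3 counts). Cd300e, Adgre4, Ear2 and Treml4 are known from the non-classical kind of monocyte, from which Fcgr4 is also known. Sub-cluster 1 was led by Ly6i, with Ms4a4c and the interferon-response genes Ifi27l2a and Irf7 also among its leading genes. Both sub-clusters were left without a name. Sub-cluster 5, with Vcan, Ccr2 and Chil3 as in classical monocytes, had 17 KO and 11 WT cells with 3 Fcgr4 UMIs in KO and 2 in WT, while its Fcgr1 was at 446 CPM in KO (49 UMIs) and 67.6 CPM in WT (8 UMIs). Sub-cluster 4, led by the progenitor genes Mpo and Elane, had 13 KO and 8 WT cells with 0 Fcgr4 UMIs in both, which allows up to 15.9 CPM in KO and 17.5 CPM in WT. Sub-cluster 2, with 30 KO and 26 WT cells, had microglial markers at 11800 CPM in KO and 11346 CPM in WT and Fcgr4 at 104 CPM in KO and 96.2 CPM in WT. The part of make-up in the lower Fcgr4 and the higher Fcgr1 of the KO monocyte-like group was not tested.

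**Figure D5:**
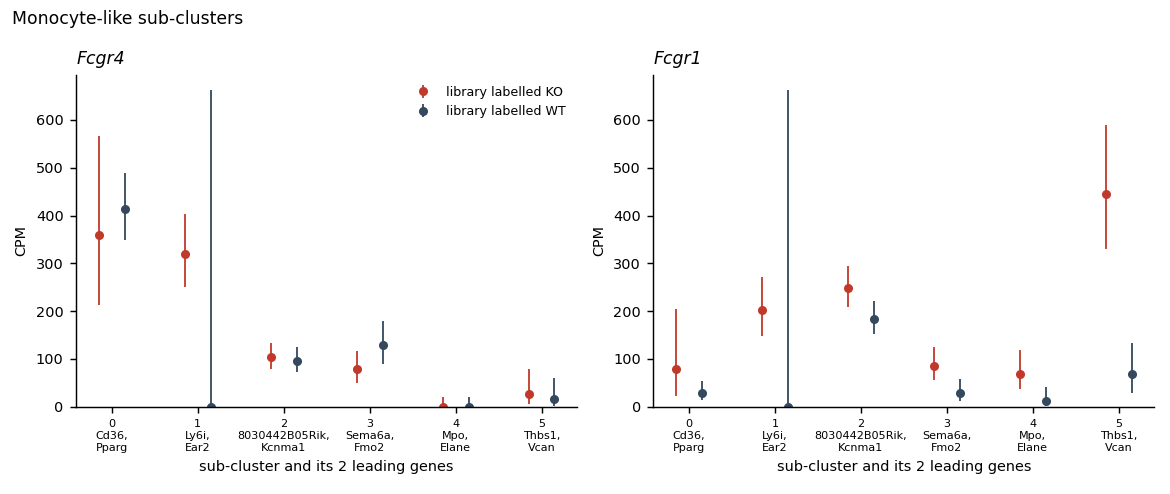
CPM of Fcgr4 (left) and Fcgr1 (right) in the 6 sub-clusters of monocyte-like cells, with exact 95% Poisson intervals (counting error only), the KO library left of the WT library. Fcgr4 is highest in sub-clusters 0 and 1 and at 0 UMIs in sub-cluster 4; Fcgr1 in sub-cluster 5 is at 446 CPM in KO and 67.6 CPM in WT.

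Genes that act with the receptors mostly stayed within the threshold in microglia-like cells. Of 16 genes for the ITAM partner Tyrobp and the kinases and adaptors of activating signalling, 0 were called in microglia-like cells, with a median log2 ratio of -0.01 beside 0.00 for all genes, and 0 were called in CNS-associated macrophage-like cells, with a median of 0.13. Of all genes with at least 20 UMIs, the minimum used for the lists, 1.1% were called higher and 1.22% lower in microglia-like cells, and 5.69% higher and 8.64% lower in CNS-associated macrophage-like cells. The extremes in microglia-like cells were Fgr, a Src-family kinase, at 7.6 CPM in KO and 10.6 CPM in WT, and Plcg2, at 240 CPM in KO and 262 CPM in WT, on the low side. On the high side were Lcp2, at 179 CPM in KO and 161 CPM in WT, and Tyrobp, at 2739 CPM in KO and 2498 CPM in WT. Lat2, an adaptor, was at a log2 ratio of 0.31 in CNS-associated macrophage-like cells, and Fgr and Card9 were at -0.20 and -0.06. Of 10 inhibitory phosphatases and adaptors, 0 were called in either group, with medians of -0.03 and 0.01 for microglia- and CNS-associated macrophage-like cells. Inpp5d, which encodes SHIP-1, was at 1564 CPM in KO and 1676 CPM in WT microglia-like cells, Cblb was at a log2 ratio of -0.12, and Cbl and Ptpn11 were at 0.03 and 0.19. Dok3 and Cblb were lowest in CNS-associated macrophage-like cells, at -0.30 and -0.13, and Csk and Pag1 highest, at 0.17 and 0.19.

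Relatives and ligands of the receptors gave few calls. Of 13 relatives, 5 were measured in microglia-like cells and 0 called, with Fcrl1 at a log2 ratio of 0.00, Fcrla at 0.03 and Trim21, a cytosolic antibody receptor, at 0.18. Of the relatives measured in CNS-associated macrophage-like cells, 4 in all, 1 was called, B2m at 2352 CPM in KO and 1768 CPM in WT, while Fcrls, a receptor-like gene of microglia, was at 744 CPM in KO and 634 CPM in WT and Trim21 and Fcrl1 at -0.29 and -0.05. Of 12 immunoglobulin constant chain genes, 8 were measured in microglia-like cells and 1 called lower, Igkc at -0.40, with Ighg2c at -0.13, Ighm at 0.01 and Iglc1 at 0.28. These genes are known from B cells and plasma cells, and B cell markers summed to 179 CPM in KO and 184 CPM in WT microglia-like cells. Only 3 were measured in CNS-associated macrophage-like cells and 1 was called lower, Igkc at -0.47, with Ighd at -0.17 and Ighm at 0.07. Of 15 complement genes and receptors, 14 were measured in microglia-like cells with 0 called higher and 1 lower, C5ar1 at 110 CPM in KO and 141 CPM in WT, and a median of 0.02; Itgax was at -0.23, C1qb at 0.13 and Cr1l at 0.18. In CNS-associated macrophage-like cells 1 of 15 was called higher (5.69% of genes), Itgam at 313 CPM in KO and 242 CPM in WT, and 3 lower (8.64%): Vsig4 at 18.4 CPM in KO and 28.7 CPM in WT, C5ar2 at -0.33, and C3, named after its values were seen, with 9 UMIs in KO and 16 in WT. Cr1l was at 0.30 there, and the list's median was -0.05.

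Interferon-response genes gave the largest counts. Of 20 genes, 19 were called higher and 0 lower in microglia-like cells, with a median log2 ratio of 1.15. Rtp4 was at 131 CPM in KO and 20.3 CPM in WT and Ifi27l2a at 581 CPM in KO and 124 CPM in WT, while Ifi44 was lowest, at a log2 ratio of 0.24, and Rsad2 was at 0.54. All 20 were called higher in CNS-associated macrophage-like cells, with a median of 0.86, from Ifih1 at 0.48 and Oas1a at 0.53 to Ifi27l2a at 1124 CPM in KO and 429 CPM in WT and Ifit2 at 1.65. The median was 1.92 in monocyte-like cells, 0.83 in cluster 21 and 1.21 in endothelial-like cells, the last a group whose Fcgr1 was within free RNA. Ependymal-like cells went against this, with a median of 0.04, 3 genes called higher and 4 lower. Of all genes with at least 50 UMIs in ependymal-like cells, 4.1% were called higher and 5.35% lower. Of 12 genes linked to interferon gamma, the cytokine known to induce Fcgr1, 2 were called higher in microglia-like cells and 0 lower. Of all genes with at least 20 UMIs in these cells, 1.1% were called higher and 1.22% lower. The list's median was 0.11. The 2 called were Gbp5 at 0.39 and Cxcl9 at 6.8 CPM in KO and 0.9 CPM in WT, while Ciita was at -0.02 and Gbp7 at 0.06. Of 10 measured in CNS-associated macrophage-like cells, 2 were called higher (5.69% of genes), Cxcl10 at 0.60 and Cxcl9 at 0.74. On the low side were Gbp7 at -0.21 and Gbp2 at -0.10. Fcgr1, at a log2 ratio of 0.44 in microglia-like cells, lay above the median of this list and below that of the interferon-response list.

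Across the 14 groups and both libraries, 28 points of log2(CPM + 10), the genes most like each receptor were found by Pearson's r among 16834 genes with the receptors left out. Fcgr3 was most like Csf1r, the receptor for the growth factor microglia need (r = 0.995), Fcrls (0.992) and Lgmn (0.992). Fcgr1 was most like Csf1r, Cd300c2 and Aif1, each at 0.972. Fcer1g was most like Tyrobp (0.9902), the other common ITAM adaptor, then Mpeg1 (0.976) and Cd300c2 (0.976). Fcgr4 was most like Klra2 (0.937), Gngt2 (0.925), a marker used to name monocyte-like cells, and Dna2 (0.923), and Fcgr2b most like Slc43a2 (0.936), Rgs2 (0.908) and Sat1 (0.902). Fcgrt was most like Kitl (0.916), Mill2 (0.909) and Lima1 (0.899). Among the receptors themselves, Fcgr1 and Fcgr3 were at 0.976, Fcgr2b and Fcgr3 at 0.692, and Fcgrt was between -0.163 and 0.0213 with the other 5. The points of 1 library share its free RNA and depth, so these values describe the groups and carry no p-value.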

How the data were processed

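Raw UMI counts per gene and barcode were deposited by the authors for 1 library per genotype, and per the file headers Cell Ranger 7.0.1 wrote them. The submitters' processing notes also name STAR, Seurat 3.1.1 and the builds GRCm38 and mm10, without a role. Barcodes needed 300 genes and 500 UMIs, with a mitochondrial share of up to 10%, and Scrublet calls were removed (724 KO and 244 WT cells, 4.10% and 1.47%, where loading would give 15.3% and 14.6%, so doublets remain). Clusters came from scanpy 1.11.5 (2000 variable genes without the receptors, Cd200r1, mitochondrial and sex-linked genes; 30 components; 15 neighbours; Leiden resolution 1), within Python 3.11.15, numpy 2.4.6, scipy 1.17.1, pandas 2.3.3, scikit-learn 1.9.0, igraph 0.11.9 and matplotlib 3.10.9.

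UMIs were summed per group and library and divided by the group's total to give CPM. Ratios are KO over WT, the log2 ratio is of CPM + 10, genes with at least 50 UMIs over both libraries were held against a log2 threshold of 0.32, and list genes needed 20. Intervals are exact Poisson for levels, exact Clopper-Pearson for shares and exact conditional binomial for ratios, at 95%. PCR and cell capture are not covered by them. The fold call and the ratio interval were tested on counts simulated with counting error only, from microglia- and CNS-associated macrophage-like profiles. Clustering, naming, doublet removal and the free-RNA criterion were not tested in this way.

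The receptors and gene lists were chosen with earlier results of these data known. All 6 receptors were reported in each group; of each list the 2 highest and 2 lowest log2 ratios in microglia- and CNS-associated macrophage-like cells were named, and for each receptor the 3 genes of highest r. A gene that this rule would name is not reported here. The division of cluster 15 from the astrocyte-like class, the free-RNA criterion, its reading by the lower interval bound and the alternatives without Ttr and erythroid genes were set after the data were seen. Platelet-like (33 KO and 279 WT cells) and oligodendrocyte-like (65 and 28) cells were not compared. Alternatives covered the pseudocount, cell filters, doublets, centring, resolution, per-cell naming, thinning to 1000 UMIs, mixed cells, subtraction of the astrocyte-like level and sub-cluster make-up.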

Additional observations from a re-analysis of the deposited data

Results flagged for a closer look

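Each value here was picked out because a receptor passed the fold threshold in opposite directions in 2 or more cell groups, with counting intervals that exclude a ratio of 1. With 1 library per genotype, the difference between groups was not tested.

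Fcgr4 had a log2 ratio of 0.629 in CNS-associated macrophage-like cells (78 UMIs in KO and 27 in WT) and 0.457 in astrocyte-like cells (28 UMIs in KO and 6 in WT, under the minimum of 50), against -0.334 in monocyte-like cells (172 and 237 UMIs), which stayed past the threshold in 8 of 12 alternatives. In both myeloid groups its level stood above free microglial RNA, but in CNS-associated macrophage-like cells the lower bound of its interval did not. In the monocyte-like group, the unnamed sub-clusters 0 and 1 held most Fcgr4. They had 18 KO and 60 WT cells and 43 KO and 4 WT cells in the same order, and their part in the value was not tested.

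Fcgr2b had a log2 ratio of -0.552 in B cell-like cells, above free RNA, against 0.431 in astrocyte-like and 0.436 in ependymal-like cells, within it in WT only for the first and in both libraries for the second. Fcgr3 had 0.467 in T cell-like and 0.552 in astrocyte-like cells, against -0.562 in cluster 15, all within free RNA in at least 1 library.

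Fcer1g had a log2 ratio of -0.393 in cluster 15, against 0.423 in cluster 21, 0.362 in B cell-like, 0.679 in T cell-like, 0.573 in astrocyte-like, 0.5 in choroid plexus epithelial-like, 0.356 in endothelial-like, 0.716 in ependymal-like and 0.512 in fibroblast-like cells. Of these, cluster 21, B cell-, T cell-, astrocyte- and endothelial-like cells stood above free RNA by the 9 microglial markers. Of these 5 groups the summed markers were higher in KO in cluster 21 and in T cell- and astrocyte-like cells, and lower in KO in B cell-like cells (1991 CPM in KO and 2154 CPM in WT) and endothelial-like cells (1003 CPM in KO and 1019 CPM in WT).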

How the results depend on the processing

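No paired analysis was possible because each genotype has 1 library, and for the same reason no replicate could be left out. Over 84 log2 ratios, 972 alternative values were computed, of which 774 moved by less than the counting interval, 179 by more and 19 reversed a called direction. Fcgr1 stayed past the threshold in the same direction in 14 of 14 alternatives in microglia-like cells (0.34 to 0.46), 14 of 14 in CNS-associated macrophage-like cells (0.47 to 0.74), 12 of 12 in monocyte-like cells (0.77 to 2.32), 13 of 13 in neutrophil-like cells (0.37 to 1.26) and 6 of 6 in cluster 21 (0.47 to 0.77). Fcgr4 did so in 12 of 14 in CNS-associated macrophage-like cells (-0.020 to 1.15) and 8 of 12 in monocyte-like cells (-1.20 to -0.20).

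The count called higher in microglia-like cells, 1, was 2 with a pseudocount of 1 CPM, with thinned cells and with per-cell naming without Ttr and erythroid genes (chosen after seeing the data), as Fcgr4 then passed. The count called higher in CNS-associated macrophage-like cells, 2, was 1 with a pseudocount of 50 CPM and with per-cell naming, and the count called lower, 0, was 1 after subtraction of the astrocyte-like level. In monocyte-like cells 2 were higher with thinned cells, and the count called lower, 1, was 0 with a pseudocount of 50 CPM, with the stricter filter and when centred on the median gene, 3 after subtraction and 2 with mixed cells left out without Ttr and erythroid genes (chosen after seeing the data). In neutrophil-like cells 2 were higher with no filter, with the stricter filter and when centred, 3 with thinned cells, and 1 was lower after subtraction. The share of all genes called is not given for these settings, so the changed counts have no background beside them. The cause of these moves was not tested.

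Per-cell naming put 5590 KO and 4110 WT cells in the choroid plexus epithelial-like class, against 570 and 433 by clusters. It left 118 KO and 112 WT astrocyte-like cells, against 1024 and 696, and 145 KO and 96 WT ependymal-like cells, against 886 and 364. Reversed log2 ratios were Fcgr4 in CNS-associated macrophage-like cells (-0.020), Fcgr1, Fcgr3 and Fcer1g in astrocyte-like cells (-0.089, -0.37 and -0.23) and Fcgr1 and Fcgr2b in ependymal-like cells (-0.040 and -0.032) with per-cell naming. With thinned cells they were Fcer1g in T cell-like (-0.14), Fcgr2b, Fcgr3 and Fcgr4 in astrocyte-like (-0.27, -0.083 and -0.51) and Fcgr1 in ependymal-like cells (-0.23). With mixed cells left out they were Fcgr2b in astrocyte-like (-0.0210) and Fcgr1 and Fcgr2b in ependymal-like cells (-0.11 and -0.10). Among alternatives chosen after seeing the data they were Fcgr1 in B cell-like (0.013) and Fcgr3 in astrocyte-like cells (-0.44) with per-cell naming without Ttr and erythroid genes, Fcer1g in B cell-like (-0.094) and Fcgr3 in astrocyte-like cells (-0.032) with mixed cells left out without those genes, and Fcgr2b in astrocyte-like cells (-0.50) with cluster 15 kept in that class.

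Depth limits Fcgr4 most, with 78 UMIs in KO and 27 in WT CNS-associated macrophage-like cells. The median log2 ratio of all genes in neutrophil-like cells was -0.11, so values there are relative to that shift.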
